A study of Homo sapiens with 4 samples.

Results

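GATA1 4-14 is a clone of Meg-01, an established human megakaryoblastic leukemia line, that stably carries a lentiviral shRNA against the transcription factor gene GATA1. Its RNA was compared with RNA from GATA1 Neg on 2 of the 4 Agilent 2-colour whole human genome arrays of the series, the 2 being chosen by their labels; the remaining 2 hold a second clone, GATA1 5-13, against the same control. GATA1 Neg, the control, is Meg-01 that received a lentivirus with a non-targeting shRNA and was kept as a mixed pool. Both sides had thus been infected, but a single colony grown out of soft agar after puromycin selection was set against a mixed population. Effects of the knockdown and differences between 1 colony and a pool therefore cannot be told apart here. All cells grew in RPMI medium with fetal bovine serum, and the labels give no drug treatment; the extraction text of the labels names CMK, another megakaryoblastic line, while every other label and the study's methods name Meg-01. On array 1 the GATA1 4-14 RNA carried the red dye (Alexa647) and on array 2 the green dye (Alexa555).

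GATA1 is a DNA-binding protein with zinc fingers that recognizes GATA motifs, and it is required for the erythroid, megakaryocytic, mast cell and eosinophil lineages. It works with the cofactor FOG1 (ZFPM1) and with a complex of TAL1, LMO2 and LDB1, and it replaces GATA2 at many sites as progenitors mature. It activates lineage genes and represses genes of the progenitor state.

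Each value is a log2 ratio of GATA1 4-14 over GATA1 Neg on 1 array, after background correction and loess. The 2 arrays carry 1 pair of RNAs, so they count as 1 replicate, no value has a test, and the SD between them is technical. A probe was called when it differed at least 1.5-fold in the same direction on both arrays and its brighter RNA was well above background on both. Of 40987 probes, 279 were called lower (0.681%) and 335 higher (0.817%). Among 17759 genes with a current symbol, 174 had a probe called lower (0.980%) and 237 a probe called higher (1.33%), and 2.31% had a call in either direction; the shares given for gene lists below are of genes with a call in either direction. Changes of 2-fold or more on both arrays were seen at 85 lower and 143 higher probes, and of 4-fold or more at 9 and 33. Across all probes the arrays correlated at r = 0.64, as a description over probes that share 2 RNAs. Their median absolute difference was 0.106 on the log2 scale among probes with an RNA above background, and 57 such probes passed 1.5-fold in opposite directions. Just inside the threshold lay GPC3 (-0.58 and -0.66), and just outside it RIPOR3 (-0.62 and -0.58).

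**Figure D1:**
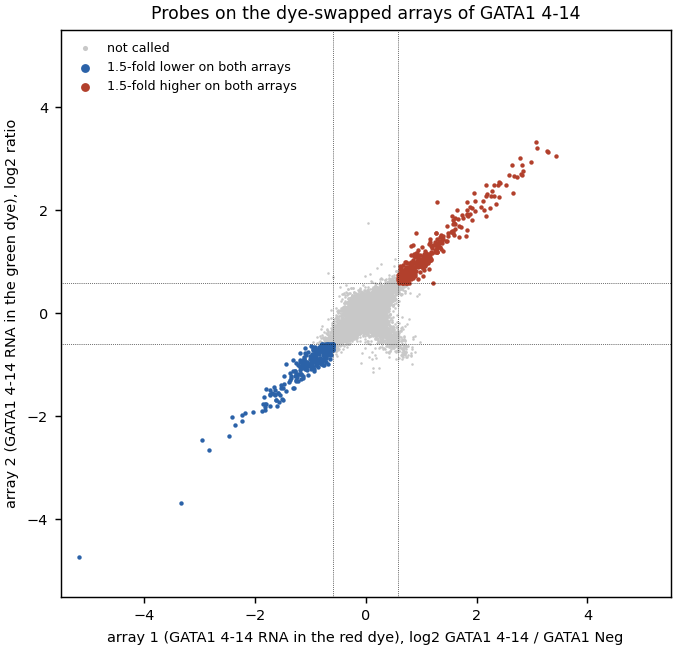
Log2 ratio of GATA1 4-14 over GATA1 Neg on array 1 (x axis) and array 2 (y axis), 1 point per probe, chromosome Y left out, with dotted lines at 1.5-fold. Called probes lie along the diagonal, from -5.17 and -4.72 to 3.44 and 3.07.

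Markers of the labelled cell type were only partly present. Well above background in both RNAs were 6 of the 9 megakaryocyte markers on the array, among them ITGA2B, ITGB3 and GP9, whereas PF4, PPBP and VWF were not. Of 8 erythroid markers, 8 were above background in GATA1 Neg and 7 in GATA1 4-14. For T cells the count was 1 of 4 in both RNAs, for B cells 2 of 4, for fibroblasts 1 of 6 and for epithelial cells 3 of 4. Between 61.6% and 63.62% of spots were well above background in each channel of these 2 arrays, and 0 were saturated.

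GATA1 itself was measured by 1 probe at chrX:48535797-48536559 (hg18, the build of the files). Its log2 ratio was -0.43 on array 1 and -0.58 on array 2, a mean of -0.50 ± 0.11 (SD, n = 2 arrays), or 70.6% of GATA1 Neg. The probe was lower on both arrays, but short of 1.5-fold on both. In GATA1 5-13 the same probe gave -0.21 and -0.34.

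Of the proteins that work with GATA1, 1 was called. LMO2, the bridging protein of the TAL1 complex, stood at -0.81 and -0.70; with median centring in place of loess it gave -0.28 and -1.18, which ends the call. LDB1, which binds LMO2, gave -0.16 and -0.18. GATA2 gave -0.22 and -0.38 at one probe and -0.23 and -0.16 at the other, so all GATA2 values were below 0 and none reached 1.5-fold. ZFPM1 (0.26 and -0.20) and 1 of the 2 TAL1 probes (-0.19 and 0.23) had opposite signs on the 2 arrays, so neither has a direction here. RUNX1 lay between -0.07 and -0.21 over its 2 probes, NFE2 at -0.17 and -0.12, and KLF1 at -0.08 and -0.30. FLI1 was 0.01 and 0.29. GFI1B lay between -0.01 and 0.20. Over the 43 genes of the list of GATA1, its partners and other lineage factors, the median was -0.01, against 0.001 over all genes, and 1 gene was called lower and 1 higher (4.65%, against 2.31% of all genes). The higher one was CEBPA, the leading factor of granulocyte commitment. It stood at 2.25 and 2.05 at one probe and 1.82 and 1.62 at a second, while the remaining probe gave 0.19 and -0.14, so its probes disagree.

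The 12 largest falls among genes with a symbol ranged in the mean from -3.51 to -1.82. GAGE12F, of the GAGE cancer-testis antigens, stood at -3.34 and -3.68, an 11.4-fold difference; GAGE genes are near-identical copies, and which of them the probe reads is uncertain. EPB41L3, a protein 4.1 family linker of membrane and cytoskeleton, was -2.83 and -2.65. Its GATA1 4-14 RNA was above background on neither array, so it was at least 6.47-fold lower. CD34, the sialomucin of hematopoietic progenitors, was -2.96 and -2.45. COL23A1, a transmembrane collagen, was -2.46 and -2.38. The natriuretic peptide clearance receptor NPR3 gave -2.36 and -2.16 at its lowest probe, and all 3 of its probes were called lower. UNC5B, a netrin receptor, was -2.42 and -2.0, and MAP7D2, a microtubule-associated protein, was -2.23 and -2.09 at 1 of its 3 probes. ADAMTS5, an aggrecanase, was -2.22 and -1.97 and at least 3.02-fold lower, and PHLDB2, a microtubule anchoring protein, was -2.17 and -1.94 and at least 4.16-fold lower. MS4A3, S100A4 and the serine protease PRSS23 completed the 12, with means of -1.97, -1.84 and -1.82. A probe for the transcript DB090170, without a current symbol and singled out after its values were seen, lay below all of these, at -5.17 and -4.72 (chrX:115711115-115711174, hg18). The bound for GATA1 4-14 was at least 26.8-fold lower, and the probe gave -5.15 and -5.01 in GATA1 5-13.

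The 12 largest rises ranged in the mean from 2.64 to 3.25. PNPLA4, a patatin-like lipase that acts on retinyl esters and triglycerides, was 3.44 and 3.07, a 9.54-fold difference, and its second probe was also called higher. RHEX, an adaptor of erythropoietin signalling, was 3.29 and 3.14. SH3D19, an SH3 domain adaptor, was 3.08 and 3.32, with both probes called. SLC6A15, a neutral amino acid transporter, was 2.98 and 2.95, with 4 of 4 probes called higher. Both arrays also gave values above 2.5 for GBP5, an interferon-induced guanylate-binding protein (2.83 and 2.88), and WASF3, a WAVE family regulator of actin (2.83 and 2.77). UBE2E2, a ubiquitin-conjugating enzyme, was 2.80 and 2.71, and TARP, from the T cell receptor gamma locus, was 2.67 and 2.68. GABRA5, a subunit of the GABA-A receptor, was 2.59 and 2.68. VCX3A, SAGE1 and VCX2, which are cancer-testis antigens, made up the rest of the 12.

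**Figure D2:**
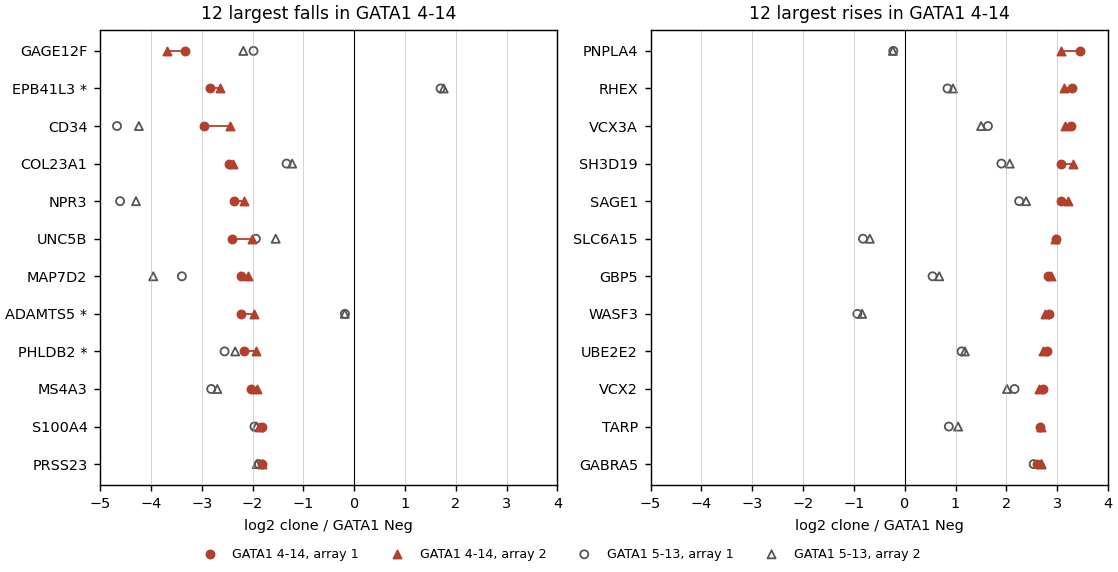
Log2 ratio of clone over GATA1 Neg (x axis) for the 12 genes with the largest falls (left) and rises (right) in GATA1 4-14; filled symbols are its arrays, open symbols those of GATA1 5-13, and an asterisk marks a gene whose dimmer RNA was above background on neither GATA1 4-14 array. The paired filled symbols lie close together, and EPB41L3, PNPLA4, SLC6A15 and WASF3 have open symbols on the other side of 0, those of PNPLA4 near background.

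Genes of hematopoietic stem and progenitor cells were called in 1 direction. Of 35 on the array, 6 were lower and 0 higher (17.1%, against 2.31% of all genes), with a list median of -0.06; in bulk RNA, fewer cells of a type and less RNA per cell cannot be told apart. Besides CD34 and NPR3 these were KDR, the VEGF receptor (-1.39 and -1.32), MECOM, the EVI1 locus (-1.35 and -1.26, with 3 of 6 probes called), KIT, the stem cell factor receptor (-1.07 and -1.05), and LMO2. The list was chosen with earlier results of these data known. The study had named CD34 and EVI1 as activated by GATA1 and listed KDR as lower, so the share of 17.1% is no independent result. That both arrays of each called gene lay below 0 follows from the rule of the call. The gap between the arrays of each was smaller than its change. Over the whole list, 17 genes were below 0 on both arrays (48.6%, against 29.8% of all genes) and 9 were above 0 on both. The highest was PROCR, with a mean of 0.45. In GATA1 5-13, KIT gave -0.31 and -0.28, and CD34 gave -4.67 and -4.24.

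Genes of mast cells, basophils and eosinophils were called in both directions, 4 lower and 3 higher of 26 on the array (26.9%, against 2.31% of all genes). CPA3, the carboxypeptidase of mast cell granules, was 1.92 and 1.81, and HPGDS, the hematopoietic prostaglandin D synthase, was 1.36 and 1.24. IL1RL1, the IL-33 receptor, was 1.03 and 0.93. Against these, the alpha and beta chains of the high-affinity IgE receptor were lower, FCER1A at -1.10 and -1.07 and MS4A2 at -1.04 and -1.20. Under median centring the FCER1A call ends (-0.54 and -1.56). MS4A3, a myeloid and basophil membrane protein, was -2.03 and -1.91, and KIT was lower as above. The list median was 0.01, with array medians of 0.02 and -0.03. CPA3 and HPGDS were thus higher, and both IgE receptor chains lower, than in GATA1 Neg. Other markers of these cells above background in GATA1 Neg were not called. Their means were -0.26 for TPSAB1, 0.02 for HDC, -0.29 for PRG2 and -0.34 for CLC. The contrast therefore holds for the named genes only.

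The 250 bases before the starts of 2 of these higher genes and 2 of the lower ones were picked after their values were seen, and are shown because all 4 hold a GATA motif, whichever way the gene went; of the other 3 called genes of the list, MS4A3 holds 1 motif and IL1RL1 and KIT hold 0. They are RefSeq sequences of GRCh38.p14, 5′ to 3′ on the strand of the gene, with capitals for the motif AGATAA, for its variant AGATAG, and for the forms that start with T, written TGATAA when they end in A and TGATAG when they end in G, on either strand; CPA3 lies at chr3:148865046-148865295 (plus strand), HPGDS at chr4:94342837-94343086 (minus strand), MS4A2 at chr11:60088414-60088663 (plus strand) and FCER1A at chr1:159302086-159302335 (plus strand).
CPA3: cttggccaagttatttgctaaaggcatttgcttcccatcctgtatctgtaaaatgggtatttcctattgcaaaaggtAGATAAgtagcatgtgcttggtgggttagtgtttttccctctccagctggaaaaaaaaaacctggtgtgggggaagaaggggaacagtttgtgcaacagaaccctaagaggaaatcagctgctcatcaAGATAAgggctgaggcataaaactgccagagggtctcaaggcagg
HPGDS: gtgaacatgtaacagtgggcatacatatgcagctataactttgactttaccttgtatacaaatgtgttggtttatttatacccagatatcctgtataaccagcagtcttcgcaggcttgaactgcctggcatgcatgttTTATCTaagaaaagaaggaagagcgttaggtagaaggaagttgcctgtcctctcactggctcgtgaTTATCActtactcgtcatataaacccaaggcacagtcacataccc
MS4A2: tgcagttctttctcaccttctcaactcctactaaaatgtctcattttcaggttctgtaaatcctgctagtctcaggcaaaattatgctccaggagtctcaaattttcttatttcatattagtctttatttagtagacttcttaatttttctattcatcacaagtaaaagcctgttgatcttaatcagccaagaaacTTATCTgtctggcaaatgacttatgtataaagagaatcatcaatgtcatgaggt
FCER1A: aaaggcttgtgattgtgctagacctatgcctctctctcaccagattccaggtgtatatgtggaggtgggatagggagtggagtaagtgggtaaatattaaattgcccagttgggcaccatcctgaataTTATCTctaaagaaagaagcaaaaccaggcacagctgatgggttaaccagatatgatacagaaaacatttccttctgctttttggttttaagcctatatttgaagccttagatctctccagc

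CPA3 and HPGDS hold 2 such motifs each, and MS4A2 and FCER1A 1 each. Over all genes of the array with a promoter in the table, 16.6% of 13953 held at least 1 motif in the same window, as did 17.9% of 179 genes called higher and 22.1% of 140 genes called lower. In the erythroid list it was 62.5% of 24 genes and in the mast cell, basophil and eosinophil list 36.4% of 22. A match of letters is no binding site, and binding was not analysed here.

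Granulocyte and monocyte genes had 4 called higher and 1 lower of 39 (12.8%, against 2.31% of all genes). Besides CEBPA, the higher ones were TYROBP, the DAP12 signalling adaptor (0.81 and 0.86), CYBB, the catalytic subunit of the phagocyte oxidase (0.66 and 0.59, at 1 of 3 probes), and S100A8, a calgranulin (0.74 and 0.59). S100A8 was above background only in GATA1 4-14, at least 1.58-fold higher. ITGAM, the alpha chain of the Mac-1 integrin, was lower at -1.31 and -1.44, and its partner ITGB2 was higher at 0.59 and 0.75. The 2 chains of that integrin thus went opposite ways. Without background correction the calls of TYROBP, CYBB, S100A8 and ITGB2 end, at 0.23 to 0.39 on the log2 scale.

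Megakaryocyte and platelet genes had 4 called higher and 0 lower of 49 (8.16%, against 2.31% of all genes), with a median of -0.04. PLEK, the platelet protein kinase C substrate pleckstrin, was 0.89 and 0.91. MMRN1, multimerin of platelet granules, was 0.84 and 0.73. ARHGAP6, a GTPase-activating protein, was 0.79 and 0.86 at 1 of its 2 probes, and F13A1, the coagulation factor XIII A chain, was 1.07 and 1.22 and at least 2.18-fold higher. The lowest gene of the list, LTBP1, was -0.76 and -0.47. Without background correction the calls of F13A1 (0.39 and 0.46) and MMRN1 (0.62 and 0.51) end, and that of MMRN1 also under median centring (0.98 and 0.57).

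Erythroid genes had small values, most of them below 0. Of 43 genes, 37 were below 0 on both arrays (86.0%), against 29.8% of all genes, and the list median was -0.19, with -0.15 on array 1 and -0.23 on array 2. Under median centring the array medians were 0.06 and -0.41 and 16 genes (37.2%) were below 0 on both arrays, so the count rests on the loess. In GATA1 5-13 the median of the same genes was 0.08. Only 2 genes were called, both lower: the Rh blood group genes RHCE (-0.80 and -0.89) and RHD (-0.70 and -0.62), whose similar sequences may share probe signal. Both calls end under median centring, at -0.44 and -0.47 on array 1, and that of RHD also without background correction. ALAS2, the first enzyme of erythroid heme synthesis, gave -0.60 and -0.23 at one probe and -0.47 and -0.33 at the other. The erythropoietin receptor EPOR gave -0.31 and -0.28, and -0.36 and -0.27, at its 2 probes above background. FECH, which inserts iron into protoporphyrin to form heme, was the highest gene of the list, at 0.25 on both arrays. The fetal globin gene HBG1 had array values of 0.14 and -1.06 at one probe and 0.12 and -0.89 at the other, so its ratio changed sign with the dye.

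Lymphoid genes had 1 lower and 2 higher of 29 (10.3%, against 2.31% of all genes). The granzymes went opposite ways, GZMB at -1.19 and -0.95 and GZMA at 0.99 and 0.97. RAG2, of the V(D)J recombinase, was 0.76 and 0.64, above background only in GATA1 4-14, and at least 1.37-fold higher. The GZMB and RAG2 calls end without background correction, and that of RAG2 also under median centring.

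**Figure D3:**
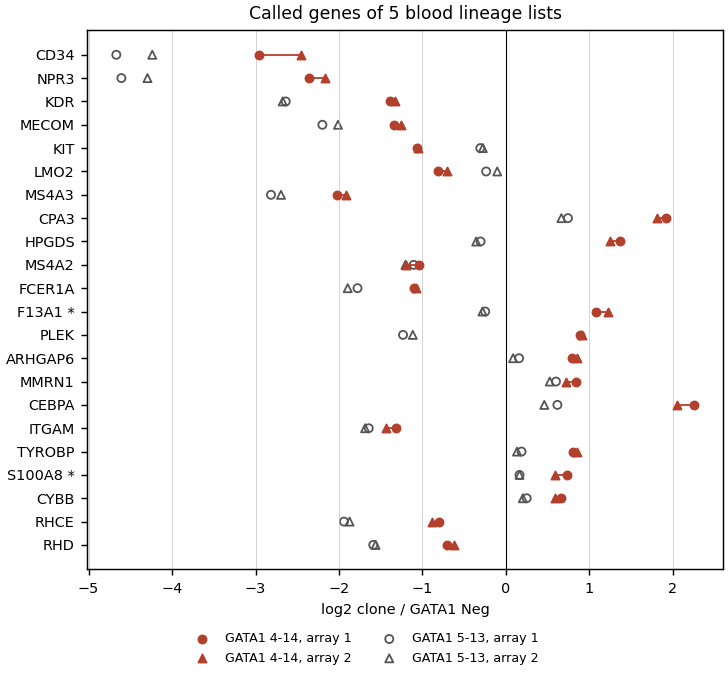
Log2 ratio of clone over GATA1 Neg (x axis) for called genes of the stem, mast cell, megakaryocyte, granulocyte and erythroid lists, at most 6 per list; symbols and asterisk as in the plot of the largest changes. Stem and progenitor genes lie to the left of 0, from -2.96 to -0.70, while CPA3 and HPGDS lie to the right and MS4A2 and FCER1A to the left.

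Cancer-testis antigens, germ cell genes that tumours often express, had the widest spread of any list. Of 46, 7 were called lower and 6 higher, 1 of them in both directions (26.1% of genes called, against 2.31% of all genes). Higher were VCX3A (3.26 and 3.16), SAGE1 (3.09 and 3.21), VCX (2.66 and 2.33), CT45A5 (2.41 and 2.27) and MAGEA9 (1.6 and 1.52). Lower, besides GAGE12F, were MAGEC2 (-1.81 and -1.76, at least 2.84-fold), MAGEA1 (-1.73 and -1.58), DAZL (-0.76 and -0.88, at least 1.34-fold), CT45A1 (-0.98 and -0.63) and MAGEA12 (-0.69 and -0.74). VCX2 was called both ways, 2.73 and 2.65 at one probe and -0.93 and -1.12 at the other, the only gene with calls in both directions. Members of the VCX, CT45 and MAGEA families are close copies, so a probe may read more than 1 of them. VCX3A, VCX, PNPLA4 and VCX2 lie within chrX:6461941-8098605 (hg18). PUDP (0.06 and 0.01), which lies between VCX3A and VCX, was not called. Just beyond VCX2, ANOS1 (-0.26 and -0.22) and TBL1X (0.14 and 0.19) were not called either.

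Several immune gene families were added after their values were seen. Of 19 MHC class II genes, which present peptides to helper T cells, 5 were called higher and 0 lower (26.3%, against 2.31% of all genes, in a family picked for its values). HLA-DRA was 1.45 and 1.40, HLA-DRB4 1.28 and 1.20, HLA-DRB5 1.09 and 1.04 with its control RNA above background on 1 of the 2 arrays, and HLA-DQB1 1.00 and 1.06, at least 2.04-fold higher. HLA-DRB3 was 0.81 and 0.67 and at least 1.61-fold higher, and the HLA-DRB genes share much of their sequence. Without background correction HLA-DRA alone of these 5 kept its call. CD74, the invariant chain, was above background in neither RNA. Of 7 guanylate-binding protein genes, GBP5 and GBP4 were called higher (28.6%, against 2.31% of all genes, in a family picked for its values). GBP4 was 1.55 and 1.57, with both probes called. Of 48 interferon-stimulated genes 1 was called (2.08%, near the 2.31% of all genes), XAF1, a partner of the apoptosis inhibitor XIAP, at 1.58 and 1.81 and at least 3.23-fold higher, while IFIT1 gave -0.60 and -0.57 and the list median was -0.04. Of 21 S100 genes, S100A4 (-1.81 and -1.88), S100P (-0.98 and -0.97) and S100A6 (-0.75 and -1.0) were lower and S100A8 higher. These calls cover 19.0% of the family, against 2.31% of all genes, and this family too was picked for its values. The S100A6 call ended under median centring (0.03 and -1.67). Of 75 neurotransmitter receptor subunit genes, GABRA5 and GLRA3 (0.80 and 0.79) were higher and GLRB (-0.69 and -0.60) was lower, 4.0% of the family and near the share of all genes, and the GLRA3 and GLRB calls end without background correction.

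Of 70 cytokine, chemokine and growth factor genes, 7 were called lower and 1 higher (11.4%, against 2.31% of all genes), with a list median of -0.01. Interleukin 1 alpha, IL1A, was -1.26 and -1.17, the EGF receptor ligand AREG was -0.99 and -1.04, and the chemokines CXCL8 and CCL4 were -1.11 and -0.89, and -0.95 and -1.05. PDGFC, INHBA and VEGFC had means of -0.89, -0.75 and -0.61. IL6 was the higher one, at 0.78 and 0.73. Without background correction the calls of IL1A, AREG, PDGFC and IL6 end, and that of IL6 also under median centring. Among 48 matrix and integrin genes, 3 were lower and 1 higher (8.33%, against 2.31% of all genes), ITGAM and ITGB2 being given above. LAMA3, a laminin chain, was -1.27 and -1.12 and at least 2.18-fold lower, and ITGB7 was -0.74 and -0.78; both calls end without background correction.

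The study asked about survival and drug response. Of 22 BCL2 family genes, 32 genes that handle cytarabine and daunorubicin, 50 mitosis genes and 51 DNA replication genes, 0 were called in either direction, with medians from 0.005 to 0.02. With 2.31% of all genes called, lists of this size would hold few calls at that share, so nothing is read from the 0. BCL2L1, which encodes Bcl-xL, was 0.00 and -0.03 at the probe above background. ABCB1, the P-glycoprotein drug pump, gave -0.47 and -0.34, and DCK, which phosphorylates cytarabine, gave -0.35 and -0.24, and -0.36 and -0.21, at its 2 probes. Heat shock (36), housekeeping (15), histone (73) and ribosomal protein (76) genes also had 0 calls. The histone median was -0.001, against 0.50 in GATA1 5-13. Ribosomal protein genes had a median of 0.39 on array 1 and -0.43 on array 2, a sign that followed the dye, and -0.02 in the mean.

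**Figure D4:**
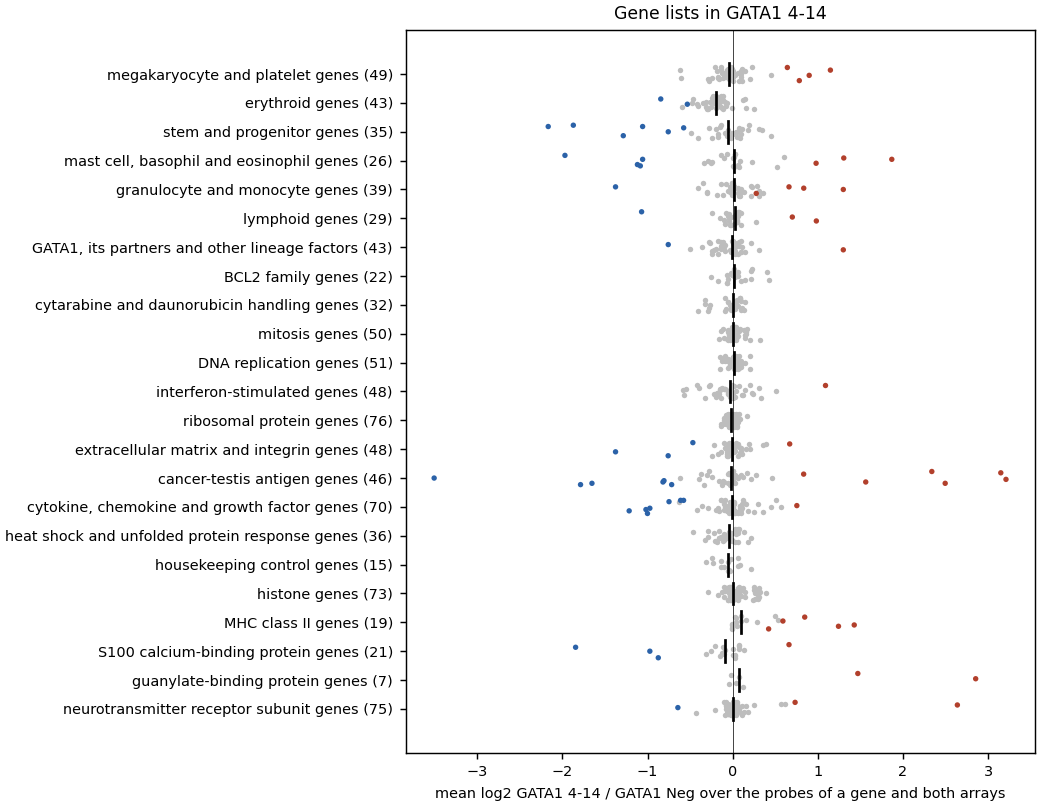
Mean log2 ratio of GATA1 4-14 over GATA1 Neg (x axis) for each gene, averaged over its probes and both arrays, in each gene list (number on the array in parentheses); blue and red points have a probe called, grey points none, and black bars are list medians. The erythroid bar stands at -0.19, and the widest spread is in cancer-testis antigens.

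By chromosome, 21 stood apart. The median over its 201 genes was -0.12 (-0.10 on array 1 and -0.12 on array 2), against -0.01 to 0.03 for every other chromosome apart from Y, which was left out. Without background correction it was -0.04. On chromosome 21, 125 genes (62.2%) were below 0 on both arrays, and over the 118 genes measured in both RNAs the median was -0.23. Of the windows of 10 Mb with at least 20 genes, those at 20 to 30 Mb (-0.25, 23 genes) and 30 to 40 Mb (-0.16, 79 genes) of chromosome 21 had the lowest medians, and the highest was 0.08. Called lower there were 5 genes: CYYR1 (-1.57 and -1.54), the proteases ADAMTS1 (-0.69 and -0.59) and ADAMTS5, and the interferon receptor chains IFNAR2 (-0.60 and -0.62) and IFNGR2 (-0.90 and -0.94). ITGB2 was the 1 gene called higher on the chromosome. These 5 lower and 1 higher are of 201 genes, where 2.31% of all genes had a call. Nothing is read from so few calls. In GATA1 5-13 the chromosome 21 median was -0.04, and -0.13 over the genes measured in both RNAs, where chromosome 1 had -0.17. DNA copy number was not measured, and its part in these values was not tested.

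**Figure D5:**
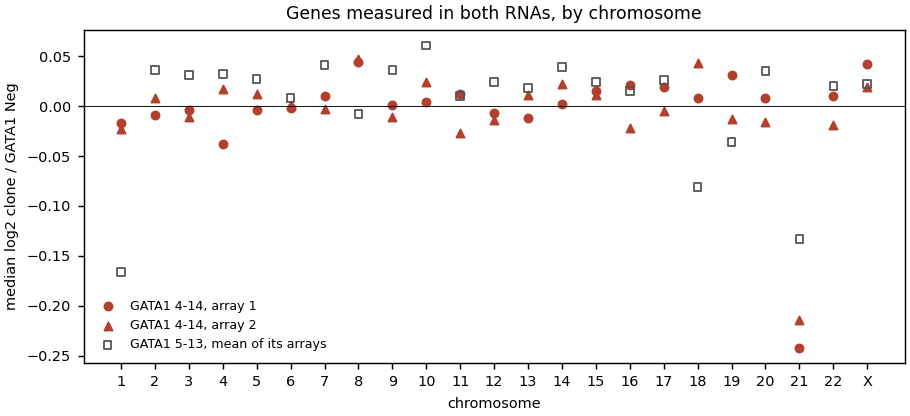
Median log2 ratio of clone over GATA1 Neg (y axis) over the genes of each chromosome (x axis) measured in both RNAs. Both GATA1 4-14 arrays lie lowest at chromosome 21, at -0.24 and -0.21.

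GATA1 5-13 was hybridized against RNA of the same GATA1 Neg pool, so a deviation of that pool enters both clones' values. The study's methods do not say whether 1 RNA preparation served both clones, and no difference between the clones was tested. In GATA1 5-13, 215 of the 279 lower probes were below 0 on both arrays. Of the 279, 157 were called lower there and 13 higher. Of the 335 higher probes, 211 were above 0 on both GATA1 5-13 arrays, 114 were called higher there and 33 lower. RUNX1T1, SEMA6D and PTN were picked after their values were seen, as genes on opposite sides of 0 in the clones. RUNX1T1, a corepressor gene, was 2.17 and 2.29 in GATA1 4-14 and -0.90 and -0.88 in GATA1 5-13, and the semaphorin SEMA6D was 2.27 and 2.29 against -1.01 and -0.98. The growth factor gene PTN was lower in GATA1 4-14 (-1.72 and -1.56) and gave 0.85 and 1.14 in GATA1 5-13.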

How the data were processed

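RNA of GATA1 4-14 and GATA1 Neg was hybridized on 2 dye-swapped arrays. The authors deposited what Agilent Feature Extraction 9.5.3.1 wrote for each array: spot mean intensity and local background intensity of both channels, not normalized, and hg18 probe positions. The log10 ratios in the deposited files were made by that program from background-subtracted, dye-normalized signals, and were used as an alternative here.

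From the intensities, normexp (offset 50, all 45015 spots) and loess within each array were run with limma 3.58.1 in R 4.3.3. Control spots and spots marked as outliers (152 and 143) were then left out, spots of a probe averaged, and the sign turned where GATA1 4-14 was green. Of 18031 RefSeq accessions on the array, 94.6% matched a current symbol in a GRCh38.p14 RefSeq table; 13386 probes have no symbol. A gene in a list or chromosome is the mean of its probes. Where the dimmer RNA was above background on neither array, the fold is a lower bound: the mean level of the brighter RNA, after Aquantile between arrays, against the higher of the probe's own level and the lowest level of a probe well above background. Where the probe's own level was the higher of these, as for PHLDB2 (4.16-fold), the bound equals the measured ratio. The bounds hold for the main processing only, since without background correction PHLDB2 gave -1.01 and -0.89. Such bounds are open to dye bias only as far as the swap leaves it.

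Named were all GATA1 probes, the 12 largest called changes each way with 1 probe per gene, up to 6 called genes per list, and 11 fixed factors. Every other gene in the text was named after its values were seen. The members, the 20 gene lists and this rule were chosen with earlier results of these data known, and 4 gene families were added later; 1 list and some genes are not reported here. The number of arrays limits the precision.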

Additional observations from a re-analysis of the deposited data

Results flagged for a closer look

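Among the called genes that the naming rule gave, with at least 1 RNA above background on a GATA1 5-13 array, 10 had both GATA1 4-14 arrays on one side of 0 and both GATA1 5-13 arrays on the other. Both clones were set against RNA of the same GATA1 Neg pool. The difference was not tested for any of the 10, since each clone is 1 replicate. The naming rule gave 68 called probes before the condition on background. Over all called probes, 53 of 279 lower ones were above 0 on both GATA1 5-13 arrays, and 99 of 335 higher ones were below 0. Opposite sides are thus not particular to these 10. The share of all probes on each side of 0 in GATA1 5-13 is not given here, so these counts have no base beside them. Lower in GATA1 4-14 were EPB41L3 (mean log2 ratio -2.74, against 1.73 in GATA1 5-13), GZMB (-1.07, against 0.20), AREG (-1.02, against 0.54) and CCL4 (-1.0, against 0.79). Higher in GATA1 4-14 were PNPLA4 (3.25, against -0.23), SLC6A15 (2.96, against -0.75), WASF3 (2.80, against -0.89), HPGDS (1.30, against -0.33), GZMA (0.98, against -1.86) and PLEK (0.90, against -1.17). For PNPLA4 the GATA1 5-13 value is near background, with GATA1 5-13 RNA above background on 0 arrays and the control on 1, and its second called probe gave 0.08 and 0.07 in GATA1 5-13. The SLC6A15 RNA of GATA1 5-13 was also above background on 0 arrays, so it was at least 1.49-fold lower there. GZMB gave 0.03 and 0.37 on the GATA1 5-13 arrays, the first of them close to 0.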

How the results depend on the processing

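The counts of called probes depended on the processing. Without background correction 140 probes were lower and 159 higher, and with the Feature Extraction log ratios, which the series-wide value table also holds, 495 and 510; at 2-fold they were 85 and 143. From 1 array alone, 400 to 436 probes were lower and 417 to 479 higher. The causes were not tested, apart from the stricter threshold and the missing second array, which act by construction. Smaller offset, median centring, outlier spots kept, and the other rules on dim probes and on the mean moved both counts by less than 1.5 times. The share of higher calls, 54.6%, was 62.7% at 2-fold and between 48.9% and 58.0% otherwise. GATA1 was below 0 under every alternative run, from -0.58 with array 2 alone to -0.41 without background correction. All 544 values of the 68 called named probes under the alternatives kept their direction, but of 664 values of named probes 210 moved by more than the SD between the arrays. Part of the 544 could not have turned. Each array alone keeps the direction by construction, since a call needs both arrays, and the series-wide value table repeats the Feature Extraction log ratios. Of the 68 calls, 21 ended without background correction and 8 under median centring, and 0 with the smaller offset, the Feature Extraction log ratios or outlier spots kept. The erythroid median ranged from -0.23 to -0.13, but under median centring its array medians were 0.06 and -0.41. The chromosome 21 median ranged from -0.04 without background correction to -0.23 over genes measured in both RNAs, an alternative chosen after seeing the data. The dimmer RNA was above background on neither array at 33 lower and 62 higher probes, which limits their folds to bounds. No paired analysis was possible because GATA1 4-14 is 1 replicate with no test; each ratio already pairs both RNAs within an array.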
